A study of Mus musculus with 6 samples.

Results

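The S100b and Upk1a barcodes were a set of mouse uterine tube (oviduct) epithelial cell barcodes defined by 5 marker genes, and they numbered 2082 of the 19619 barcodes that passed the minimum of 500 unique molecular identifiers (UMIs) and 250 genes, out of 20731 deposited. A barcode stands for 1 droplet, taken as 1 cell. It was a member when it held at least 2 UMIs of Epcam, Krt7, Krt8 and Krt18 together and more of these than of the stromal genes Dcn, Col1a1, Col1a2 and Col3a1. It could have at most 2 of 8 ciliated cell genes detected, needed at least 2 of S100b, Upk1a, Thrsp, Them5 and Calb1 detected, and had to have fewer than 2 of Gabrg3, Sox2ot, Slc28a3, Cdh4 and Fut2 detected. These values chose the members, so their levels in the members are given as a description.

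The study profiled uterine tubes of adult C57BL6 female mice in estrus with droplet single-cell RNA sequencing (10x Genomics, 3' v2). The tubes of groups of mice were cut into a proximal and a distal section, and tissue of the same section was combined before dissociation and removal of dead cells. There were 3 proximal libraries, numbered 2, 3 and 4 by their titles, and 3 distal libraries, numbered 1, 2 and 3. No group carried a transgene or treatment in the labels, each library pooled several animals whose number is not used here. The members numbered 171, 20 and 39 in proximal 2, 3 and 4, and 944, 612 and 296 in distal 1, 2 and 3.

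Secretory cells line the tube beside ciliated cells and release the fluid and glycoproteins that bathe the oocyte and the early embryo. Oviductin (Ovgp1) is their best known product, and Pax8 is a transcription factor used to mark them. S100b is an EF-hand calcium-binding protein best known from glia, and Calb1 encodes the calcium buffer calbindin. Upk1a is a tetraspanin of the plaques that cover the urinary tract lining, Thrsp (Spot 14) is a nuclear regulator of lipid synthesis, and Them5 is a mitochondrial acyl-CoA thioesterase.

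The libraries differed greatly in size, with 426707 to 5633091 UMIs in the proximal libraries and 24175396 to 32488145 in the distal ones. Members contributed 59387 to 489319 UMIs per proximal library, with the fewest in proximal 3. Libraries shared at most 51 barcode sequences per pair, and at most 2 of them were members in both. Barcodes of 3 other classes serve for comparison: 2529 other non-ciliated epithelial barcodes that met the epithelial criteria but not the marker criteria (called others below), 1572 ciliated epithelial barcodes and 10466 fibroblast barcodes. Among the others were 968 barcodes that had at least 2 markers but also at least 2 of the Gabrg3 set.

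Many members held no nuclear Malat1 RNA and little mitochondrial RNA. Malat1, a long noncoding RNA retained in the nucleus, had 0 UMIs in 1278 of the 2082 members (61.4%), in 403 of the 2529 others (15.9%) and in 16 of the 10466 fibroblast barcodes (0.153%). By library the share of members without Malat1 was 88.9%, 5.00% and 33.3% in proximal 2, 3 and 4, and 55.6%, 70.6% and 52.4% in distal 1, 2 and 3. In the others it was 80.0%, 6.67% and 14.4% in the proximal libraries and 16.8%, 27.7% and 7.36% in the distal ones. Proximal 2 therefore stood apart, since its members and its others were both mostly without Malat1 while its fibroblast barcodes were not. Thinning each barcode to 1000 UMIs left the same contrast in the distal libraries, with 71.0%, 84.8% and 60.4% of members without Malat1 against 16.1%, 34.9% and 6.90% of others.

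The median mitochondrial share of UMIs in members was 0.551%, 3.02% and 3.58% in proximal 2, 3 and 4, and 0.704%, 0.633% and 1.15% in distal 1, 2 and 3. The others had medians of 0.344%, 3.34% and 3.42% in the proximal libraries and 4.56%, 3.01% and 5.07% in the distal ones. Distal members were also shallower, with a median of 2802, 3656 and 3744 UMIs against 6494, 8010 and 6986 in the others. Some results below are also given without these barcodes, and the rest are given for all barcodes only. Only 310 members (14.9%) held both at least 0.2% Malat1 and at least 1% mitochondrial UMIs, against 1854 of the others (73.3%), and just 1 of the 310 came from proximal 2.

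**Figure D1:**
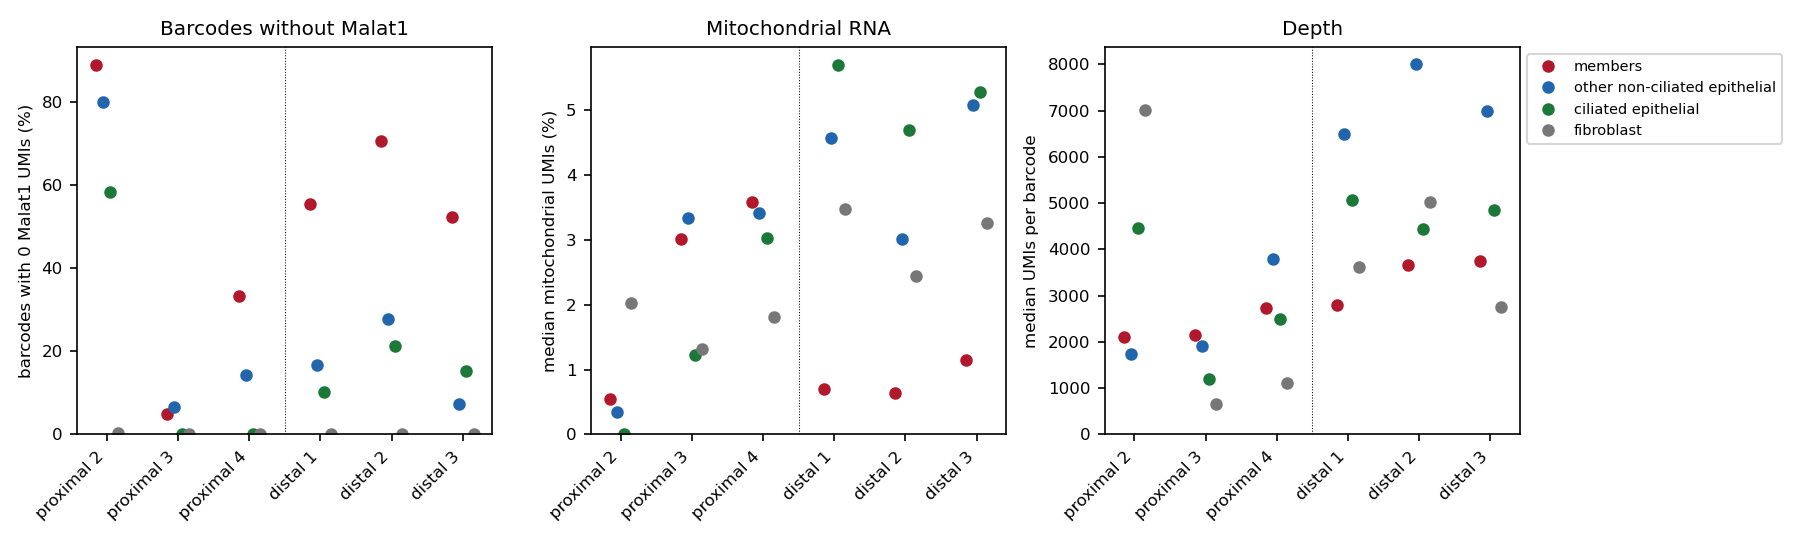
Share of barcodes with 0 Malat1 UMIs, median mitochondrial share of UMIs and median UMIs per barcode, for each library (x axis) and class (colour); each point is 1 library. In the 3 distal libraries 52.4% to 70.6% of members had no Malat1, against 7.36% to 27.7% of the others, and proximal 2 was high in both classes.

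The stretches just upstream of the marker genes are shown because these genes define the class. Each runs from 250 bases before to 50 bases after the annotated start (RefSeq, build GRCm38.p6), 5′ to 3′ on the strand of the gene, and 4 of the 5 markers were in the RefSeq table used. Capitals mark CCAAT or its reverse complement ATTGG.
S100b (chr10:76253586-76253885, plus strand): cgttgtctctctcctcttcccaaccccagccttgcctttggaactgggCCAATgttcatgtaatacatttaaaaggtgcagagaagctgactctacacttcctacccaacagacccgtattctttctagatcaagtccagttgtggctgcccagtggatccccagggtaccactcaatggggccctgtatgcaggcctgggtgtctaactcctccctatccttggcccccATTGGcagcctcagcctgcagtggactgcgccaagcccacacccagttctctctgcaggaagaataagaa
Upk1a (chr7:30612685-30612984, minus strand): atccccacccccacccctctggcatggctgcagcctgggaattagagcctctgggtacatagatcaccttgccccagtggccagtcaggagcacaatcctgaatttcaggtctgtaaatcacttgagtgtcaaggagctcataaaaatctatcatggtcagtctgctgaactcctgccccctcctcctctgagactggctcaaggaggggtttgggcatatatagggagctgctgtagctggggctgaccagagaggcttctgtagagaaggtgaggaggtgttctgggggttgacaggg
Thrsp (chr7:97417501-97417800, minus strand): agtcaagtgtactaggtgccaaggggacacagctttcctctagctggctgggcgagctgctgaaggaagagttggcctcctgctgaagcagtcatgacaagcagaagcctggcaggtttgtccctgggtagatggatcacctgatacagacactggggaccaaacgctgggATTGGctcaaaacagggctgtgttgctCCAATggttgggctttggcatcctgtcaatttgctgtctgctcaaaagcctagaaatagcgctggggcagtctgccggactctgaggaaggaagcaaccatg
Them5 (chr3:94341849-94342148, plus strand): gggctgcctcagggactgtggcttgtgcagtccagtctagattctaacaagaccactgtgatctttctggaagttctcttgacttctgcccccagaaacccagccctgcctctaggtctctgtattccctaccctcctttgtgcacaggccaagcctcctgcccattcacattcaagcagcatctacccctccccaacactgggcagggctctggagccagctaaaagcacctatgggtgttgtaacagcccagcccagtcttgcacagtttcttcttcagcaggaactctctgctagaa

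Both strands were searched for 3 short promoter motifs, whose matches did not overlap. The CCAAT box was found in 2 places each for S100b and Thrsp and in no place for Upk1a or Them5, and 37.4% of all 32851 stretches of this length in the table held it on either strand. The TATA box, searched for as TATAAA, was in none of the 4 and in 13.6% of all. The GC box, searched for as GGGCGG, was in none of the 4 and in 35.7% of all. A match describes the letters only and is not a measured binding site.

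Thrsp and Upk1a were the most widely detected markers. A UMI of Thrsp was found in 1845 of the 2082 members (88.6%), of Upk1a in 1764 (84.7%), of Calb1 in 1664 (79.9%), of S100b in 1147 (55.1%) and of Them5 in 416. The name of the class therefore rests on genes that not every member shows, and S100b was missing in close to every second one.

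Levels are given as CPM, the UMIs of a gene per 1000000 UMIs, both summed over the barcodes of a class in 1 library. S100b stood at 1790, 16.8 and 347 CPM in the members of proximal 2, 3 and 4, and at 594, 2433 and 219 CPM in those of distal 1, 2 and 3. In the others it stood at 1015, 6.20 and 93.5 CPM in the proximal libraries and 107, 464 and 40.9 CPM in the distal ones. S100b was thus highest in the 2 libraries numbered 2, on both sides of the tube, and rested on 1 UMI in the members of proximal 3. The share of members with a UMI was 57.9%, 5.00% and 20.5% in the proximal libraries and 51.7%, 72.2% and 36.8% in the distal ones. S100b was also present in ciliated barcodes, with a UMI in 9 of 12, 1 of 5 and 6 of 24 in the proximal libraries and in 46.9%, 59.9% and 50.5% in the distal libraries. Its level in ciliated barcodes was 271, 103 and 72.3 CPM in proximal 2, 3 and 4 and 143, 318 and 123 CPM in distal 1, 2 and 3, which lies below the members in every library but proximal 3. Ciliated and member barcodes differed in depth, which detection shares depend on. Fibroblast barcodes, which serve as the level given by free RNA, had a UMI in 4.19% and 0.582% in proximal 2 and 4 and in 4.69%, 7.77% and 4.03% in the distal libraries, at median depths of 7013 and 1108 and of 3629, 5032 and 2759 UMIs. In proximal 3, 0 of 145 fibroblast barcodes had one, which allows a share of up to 2.07%.

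Upk1a followed a similar order. Its level in members was 1733, 522 and 701 CPM in proximal 2, 3 and 4 and 1778, 2179 and 796 CPM in distal 1, 2 and 3, against 964, 236 and 362 CPM in the proximal others and 461, 666 and 278 CPM in the distal others. In contrast to S100b, it was detected in 72.0% to 90.0% of members in every library, proximal 3 included. Ciliated barcodes held far less in the distal libraries, at 71.0 to 207 CPM.

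Thrsp was at 1016, 152 and 244 CPM in the members of proximal 2, 3 and 4 and at 1199, 1468 and 773 CPM in those of distal 1, 2 and 3. The others had 321, 55.8 and 87.4 CPM in the proximal libraries and 391, 600 and 305 CPM in the distal ones. Detection in members ran from 40.0% in proximal 3 to 93.8% in distal 2.

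Calb1 was the most even of the 5, at 1028, 808 and 683 CPM in proximal members and 737, 782 and 462 CPM in distal members. It was also the least selective in the proximal libraries, where the others had 786, 570 and 654 CPM, while the distal others had 279, 315 and 213 CPM. Them5 was scarce everywhere, at 36.8, 16.8 and 6.09 CPM in proximal members and 122, 60.3 and 73.6 CPM in distal members, against 20.4, 0 and 10.2 CPM in proximal others and 27.8, 22.8 and 15.6 CPM in distal others. In members of proximal 3 and 4 it rested on 1 UMI each.

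**Figure D2:**
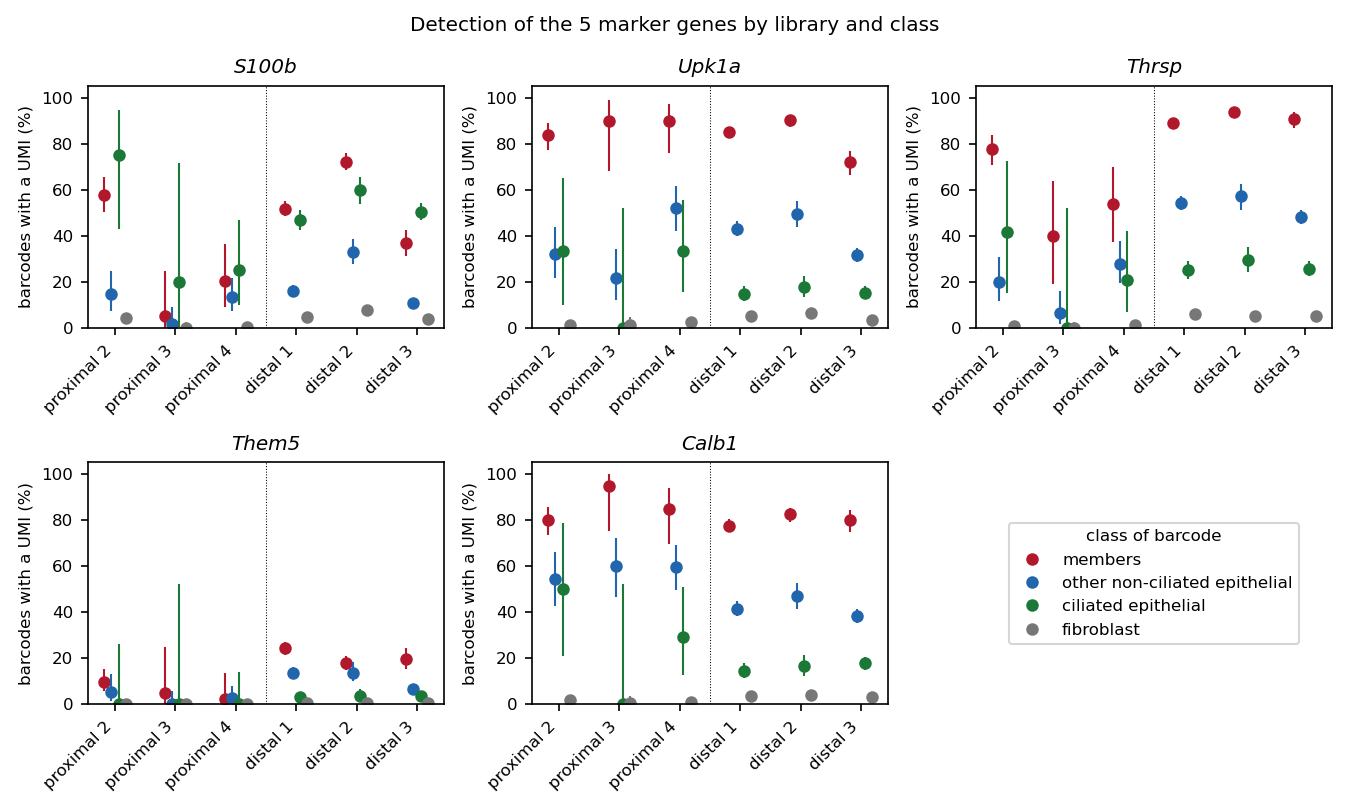
Share of barcodes with at least 1 UMI of each marker gene (y axis, percent) by library (x axis) and class (colour), with exact 95% binomial intervals that cover counting error only. S100b was detected in ciliated barcodes as well as in members, whereas Upk1a, Thrsp and Calb1 were detected in more of the members than of any other class in every library.

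Since membership requires at least 2 markers, the pairs found together in members are a description of the rule's outcome. In distal 2, the library with the highest levels, Upk1a and Thrsp were both detected in 84.5% of members and S100b and Upk1a in 67.8%, and in proximal 2 these pairs were detected in 63.7% and 50.3%. In proximal 3 the commonest pair was Upk1a with Calb1, in 85.0% of its 20 members, and no member had both S100b and Upk1a. Of all members, 517 had exactly 2 markers, 660 had 3, 703 had 4 and 202 had all 5. Just outside the threshold stood 815 non-ciliated epithelial barcodes with 1 marker, and 746 had none. Members with exactly 2 markers were compared with barcodes with 1 marker and fewer than 2 Gabrg3-set genes. In every distal library these members were shallower and had a lower mitochondrial share. Their medians were 2330 UMIs and 0.898% against 2913 UMIs and 2.39% in distal 1, and 3146 UMIs and 0.983% against 3665 UMIs and 1.14% in distal 2. The proximal libraries did not share this order. In proximal 4 the 22 members had 3410 UMIs and 4.02%, against 2206 UMIs and 2.59% in 39 barcodes.

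Levels of S100b, Upk1a, Thrsp and Them5 were higher in members without Malat1, proximal 3 aside. In proximal 4, the 13 members without Malat1 had 2237 CPM of S100b and 20384 CPM of Ovgp1, against 142 and 4602 CPM in the 26 members with Malat1. In distal 3, the 155 members without Malat1 had 446 CPM of S100b and 1626 CPM of Upk1a, against 106 and 385 CPM in the 141 with it. The same order held for S100b, Upk1a, Thrsp and Ovgp1 in distal 1, distal 2 and proximal 2. Proximal 3 had 1 member without Malat1 and gives no comparison. Calb1 was higher without Malat1 in the distal libraries but lower in proximal 2 (1003 against 1141 CPM) and proximal 4 (621 against 689 CPM). Members without Malat1 were also shallower, with medians of 1123 against 4245 UMIs in proximal 4 and 3072 against 5959 in distal 3. Detection of the markers and of Malat1 both depend on depth. The parts of depth and RNA quality in the marker pattern were not tested.

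Of the defining secretory markers, Ovgp1 was high in the members, while Pax8 was lower than in the others. Ovgp1 stood at 16026, 2357 and 6150 CPM in the members of proximal 2, 3 and 4 and 25914, 23147 and 16805 CPM in those of distal 1, 2 and 3, and had a UMI in 90.0% to 100% of members per library. The others had 12836, 2276 and 5748 CPM in the proximal libraries and 14543, 13502 and 11219 CPM in the distal ones. Fibroblast barcodes had 32.1 to 873 CPM of Ovgp1, so the gene was far above free RNA in both epithelial classes. Pax8 stood at 121, 421 and 219 CPM in proximal members and 110, 134 and 153 CPM in distal members, below the others of the same library each time (275, 453 and 366 CPM proximal, 216, 346 and 294 CPM distal). Epcam had a UMI in 70.8%, 55.0% and 76.9% of proximal members and 83.7%, 88.4% and 86.1% of distal members, and is part of the rule.

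Fibroblast, ciliated and granulosa markers were low in members, while the immune, endothelial, mesothelial, smooth muscle and red blood cell lists were not all low. The 12 fibroblast markers outside the rule summed to 50.5 to 119 CPM in proximal members and 109 to 163 CPM in distal members, against 6686 to 9676 and 3991 to 6672 CPM in fibroblast barcodes. The 18 ciliated genes outside the rule summed to 16.8 to 131 CPM in proximal and 197 to 234 CPM in distal members, against 4698 to 9521 and 7789 to 9665 CPM in ciliated barcodes. The 9 mesothelial markers summed to 756 to 1692 CPM in proximal and 1288 to 1819 CPM in distal members, against 1036 to 1408 and 1228 to 1380 CPM in the others and 138 to 901 and 155 to 351 CPM in fibroblast barcodes. Most of the sum in members was Krt19, a keratin of many epithelia, at a mean of 1144 CPM, and Wt1, at a mean of 181 CPM, while Upk3b and Bnc1 had 0 UMIs in all members. The 8 smooth muscle markers summed to at most 42.7 CPM in proximal members and to 102 to 731 CPM in distal members. The others had 6.20 to 18.3 and 22.2 to 370 CPM of this list. The 5 red blood cell markers summed to 50.5 to 1249 and 3387 to 4649 CPM in members, against 124 to 11076 and 1251 to 10712 CPM in the others. Amh, Cyp19a1 and Lhcgr of the 12 granulosa and luteal markers were also at 0, and the list summed to at most 2.04 CPM in proximal and 5.74 CPM in distal members. The 12 immune markers summed to 71.5 to 104 CPM in proximal and 71.3 to 152 CPM in distal members. The others had 30.6 to 156 CPM in proximal and 27.2 to 48.6 CPM in distal libraries, so distal members lay above distal others. Fibroblast barcodes had 99.2 to 337 and 47.0 to 86.1 CPM of the immune list. The 8 endothelial markers summed to 2.04 to 50.5 and 7.18 to 74.7 CPM in members, against 5.10 to 49.6 and 5.54 to 42.1 CPM in the others. Fibroblast barcodes had 63.1 to 109 and 37.9 to 155 CPM of the endothelial list.

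The first comparison asked whether members make up a different share of the non-ciliated epithelium in the 2 sections. They made up 171 of 246 (69.5%, exact 95% interval 63.3% to 75.2%), 20 of 80 (25.0%, 15.99% to 35.9%) and 39 of 143 (27.3%, 20.2% to 35.3%) in proximal 2, 3 and 4. In distal 1, 2 and 3 they made up 944 of 1918 (49.2%, 47.0% to 51.5%), 612 of 922 (66.4%, 63.2% to 69.4%) and 296 of 1302 (22.7%, 20.5% to 25.1%). The sections overlapped fully, at 40.6% ± 25.1 proximal and 46.1% ± 22.0 distal (SD, n = 3 each). The difference of −5.51 percentage points gave p = 1.0 in a two-sided exact permutation test, where 3 libraries against 3 can reach no lower than 0.1. Both libraries numbered 2 were high, so libraries differed more within a section than the sections did from each other.

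Shares of barcodes with a UMI depend on depth, and thinning every barcode to 1000 UMIs gave 65.5%, 15.0% and 19.2% in proximal 2, 3 and 4 and 44.9%, 61.5% and 17.9% in distal 1, 2 and 3. The thinned difference was −8.22 points (p = 0.9, exact permutation test). Among barcodes that held Malat1 and mitochondrial RNA, a setting chosen after the data were seen, the share was 16.7% (1 of 6), 26.0% and 22.0% in the proximal libraries and 15.4%, 22.0% and 10.1% in the distal ones. The difference then pointed the other way, at 5.75 points (p = 0.2, exact permutation test).

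**Figure D3:**
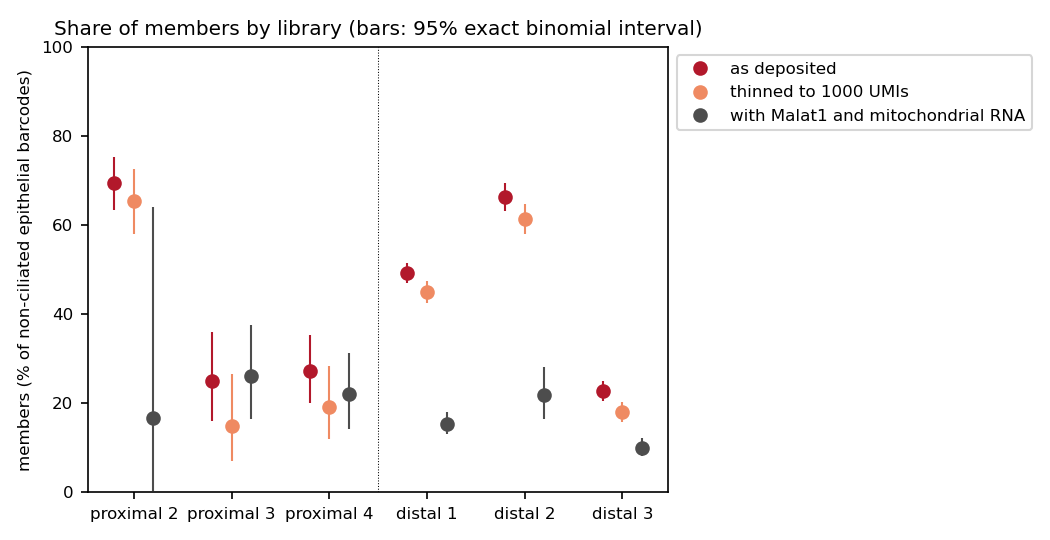
Members as a percentage of non-ciliated epithelial barcodes (y axis) in each library (x axis), as deposited, after thinning each barcode to 1000 UMIs, and among barcodes with Malat1 and mitochondrial RNA; bars are exact 95% binomial intervals for counting error. The proximal and distal libraries overlap in all 3 settings, and proximal 2 rests on 6 barcodes in the last one.

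Members were then set against the others of the same library, gene by gene, as the log2 ratio of CPM plus 5. This is the contrast the members were chosen on, so the differences carry no test. Of 10093 genes outside the rule with a mean of at least 10 CPM in either class, only Cdkn2c was over 1 (2-fold) higher in all 6 libraries, which is 0.00991% of them, and 4 genes (0.0396%) were over 1 lower. Cdkn2c encodes the CDK inhibitor p18, a brake on the G1 phase. It was at 94.0, 33.7 and 54.9 CPM in the members of proximal 2, 3 and 4 and at 67.0, 58.9 and 48.4 CPM in those of distal 1, 2 and 3, against 20.4, 6.20 and 22.3 CPM in proximal others and 29.7, 22.8 and 19.5 CPM in distal others. The 2 classes did not overlap, and the log2 difference was 1.38 ± 0.39 (SD over 6 libraries). Over the proximal libraries Cdkn2c rested on 57 counts in members and 16 in others, with the fewest in proximal 3, whose members held 59387 UMIs. Fibroblast barcodes held 43.7 to 51.1 CPM of Cdkn2c, which lies within the range of the members.

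The 4 genes lower in members were Nrg1, Pag1, Slc1a4 and the unnamed locus LOC118568126. Slc1a4, a transporter of neutral amino acids, was the steadiest, at 20.4, 33.7 and 24.4 CPM in proximal members and 19.7, 19.4 and 27.2 CPM in distal members, against 61.2, 86.8 and 93.5 CPM in proximal others and 68.6, 88.7 and 70.8 CPM in distal others, a log2 difference of −1.52 ± 0.29. Pag1, a membrane adaptor that recruits the kinase Csk, differed by −1.77 ± 0.38, with 0, 0 and 6.09 CPM in proximal members and 31.1, 15.1 and 33.1 CPM in distal members, against 10.2 to 42.7 CPM in proximal and 72.1 to 91.9 CPM in distal others. Nrg1, a growth factor for ErbB receptors, differed by −1.97 ± 1.29 and averaged 11.2 ± 13.7 CPM in members and 66.2 ± 62.5 CPM in others. LOC118568126 differed by −2.17 ± 1.06. Over the proximal libraries members held 16 counts of Slc1a4, 8 of Nrg1, 5 of LOC118568126 and 1 of Pag1. Leaving out proximal 2, 3 or 4 gave 9, 21 and 16 lower genes, and leaving out distal 3 gave 38. Among the barcodes with Malat1 and mitochondrial RNA no gene was past 1 in either direction in all 5 libraries left, and Cdkn2c then differed by 0.94 ± 0.86 and Slc1a4 by −1.28 ± 0.64.

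The distal libraries, which hold most of the members, showed more. Over these libraries alone, a choice made after the data were seen, 10 of 9595 genes (0.104%) were over 1 higher in members and 94 (0.98%) over 1 lower. Besides Cdkn2c the higher genes included Pla2g7, a secreted phospholipase that inactivates platelet-activating factor (61.8 ± 28.9 CPM in members and 17.9 ± 6.5 CPM in others), Ppcs, an enzyme of coenzyme A synthesis (37.7 ± 12.03 and 14.3 ± 6.1 CPM), and the noncoding transcript Abhd11os (295 ± 43.0 and 114 ± 13.8 CPM). Mup6, Esp8 and H4c8 were also higher, but belong to families of near-identical genes, so their counts are uncertain. Lower in distal members were Spp1, the secreted phosphoprotein osteopontin (4.60 ± 6.60 CPM in members and 138 ± 165 CPM in others), Akr1cl (0.56 ± 0.24 and 30.5 ± 23.7 CPM), the potassium channel Kcnb2, the transcription factor Aff1, the receptor kinase Erbb4 and the noncoding RNAs Rmst and Mir100hg. Distal members were also shallower and more often without Malat1 than distal others, and the part of this in these genes was not tested. This distal contrast was not repeated among barcodes with Malat1 and mitochondrial RNA.

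A narrower set of others gave a wider contrast. Against the non-ciliated epithelial barcodes with none of the 5 markers, 15 of 11027 genes (0.136%) were over 1 higher in all 6 libraries and 8 (0.0725%) over 1 lower. The higher genes included Derl3, which removes misfolded proteins from the endoplasmic reticulum (139 ± 80.6 CPM in members and 27.2 ± 30.4 CPM in these others), the disulphide isomerase Pdia3 (1193 ± 826 and 471 ± 367 CPM), the coat protein Sec13 (114 ± 44.9 and 38.7 ± 31.9 CPM) and Emc2 (67.0 ± 41.1 and 17.2 ± 19.0 CPM). Guca2b, the hormone uroguanylin, was at 95.1 ± 45.3 CPM in members and 10.2 ± 17.5 CPM in these others. Lower genes included the cAMP phosphodiesterase Pde4b and the sulphatase Sulf1. The comparison class was small in the proximal libraries, with 14, 18 and 16 barcodes and 22124, 22512 and 33815 UMIs in proximal 2, 3 and 4. It held 0 counts of Derl3 and of Emc2 in all 3, of Sec13 and Guca2b in proximal 3 and 4, and of Pdia3 in proximal 3. The proximal side of this contrast therefore rests on very few counts.

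Against the barcodes with at least 2 genes of the Gabrg3 set, Cdkn2c alone was over 1 higher in all 6 libraries (0.00995% of 10048 genes) and 8 genes (0.0796%) were over 1 lower. These included Slc1a4 (24.1 ± 5.6 CPM in members and 96.2 ± 12.2 CPM in the Gabrg3-set barcodes), Serpina3n (1.52 ± 2.51 and 19.1 ± 7.2 CPM), the cation channel Trpm3 and the motor protein gene Myo1e. The Gabrg3-set barcodes numbered 16, 11 and 50 in proximal 2, 3 and 4. Those with at least 2 markers had medians of 11117, 14810 and 10266 UMIs in distal 1, 2 and 3, deeper than members. Of them 7.96%, 16.4% and 0% had no Malat1. The part of depth and RNA quality in this contrast was not tested.

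**Figure D4:**
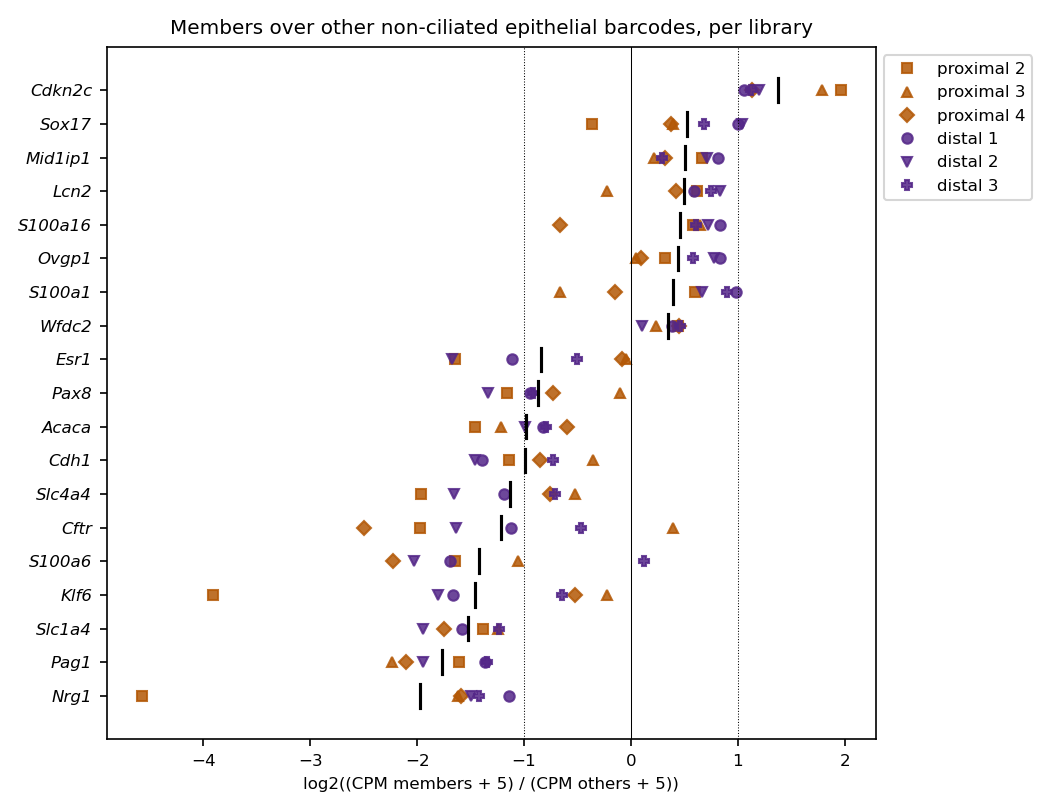
Log2 ratio of CPM plus 5 in members over other non-ciliated epithelial barcodes (x axis) for named genes (y axis), with 1 symbol per library and a black bar for the mean; dotted lines mark 1 and −1. Cdkn2c lies right of 1, and Slc1a4, Pag1 and Nrg1 left of −1, in all 6 libraries.

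Gene groups were read by how many of their measured genes were higher or lower in members in all 6 libraries. Over all 10093 genes 5.58% were higher and 13.6% were lower in 6 of 6, with a median log2 difference of −0.13. Of the 16 measured oviduct secretory genes, 2 were higher in 6 of 6, Ovgp1 (0.44 ± 0.34) and the secreted inhibitor Wfdc2 (0.34 ± 0.14), and 5 were lower, among them Pax8 (−0.86 ± 0.43), Cdh1 (−0.99 ± 0.43), which encodes E-cadherin, and the tight junction gene Cldn4 (−1.32 ± 0.81). The list's median was −0.34. In barcodes with Malat1 and mitochondrial RNA, Ovgp1 differed by −0.03 ± 0.21 and the list's median was −0.14.

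The lists nearest to the marker genes came next. Of 27 fatty acid and lipid synthesis genes, 1 was higher and 2 were lower in 6 of 6, with a median of −0.27. The higher one, Mid1ip1 (0.50 ± 0.26), encodes the partner and paralog of the Thrsp protein, while Acaca, the acetyl-CoA carboxylase that this pair regulates, differed by −0.98 ± 0.31. None of 18 cholesterol synthesis genes was higher or lower in 6 of 6 (median −0.17). Among 14 uroplakins and tetraspanins none was higher or lower in 6 of 6 (median −0.03), and Upk1b, Upk2, Upk3a and Upk3b, the other plaque proteins, did not reach 10 CPM. Of 11 S100 genes, 1 was lower and none higher in 6 of 6, with S100a16 at 0.46 ± 0.56, S100a1 at 0.39 ± 0.65 and S100a6 at −1.42 ± 0.86. S100a6 was not the gene lower in 6 of 6, since it was higher in the members of distal 3 (750 against 689 CPM). Among 14 calcium transport genes, 1 was higher and 4 lower, with a median of −0.50, including the pump Atp2a3 (−0.64 ± 0.60) and the channels Itpr1 (−0.90 ± 0.77) and Itpr3 (−0.60 ± 0.59). In barcodes with Malat1 and mitochondrial RNA the fatty acid, cholesterol and uroplakin and tetraspanin medians were −0.06, 0.08 and −0.09. The S100 and calcium transport medians were −0.19 and −0.13 there.

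Of 18 Mullerian and epithelial transcription factors, 7 were lower and none higher in 6 of 6 (median −0.50), among them Meis2 (−0.90 ± 0.52) and Pax2 (−0.85 ± 0.67). Of 15 steroid hormone receptors and targets, 4 were lower and none higher (median −0.43), among them the oestrogen receptor Esr1 (−0.84 ± 0.74). Of 31 stress and immediate early genes, 8 were lower and none higher (median −0.70), with Klf6 at −1.46 ± 1.36 and Atf3 at −1.27 ± 0.81. In barcodes with Malat1 and mitochondrial RNA the medians of these 3 lists were −0.18, −0.06 and −0.05, beside −0.07 over all genes. Luminal ion and fluid transport had 2 of 20 genes lower and none higher in 6 of 6 (median −0.22), led by the bicarbonate transporter Slc4a4 (−1.13 ± 0.58), and the chloride channel Cftr differed by −1.22 ± 1.05.

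Secreted growth factors and proteins had 1 of 25 genes higher and 4 lower in 6 of 6 (median −0.43), and mucosal defence had none of 13 higher and 1 lower (median 0.06), with the iron-binding protein Lcn2 at 0.50 ± 0.38. None of 8 cell cycle genes or 3 multiciliogenesis regulators was higher or lower in 6 of 6 (medians 0.06 and −0.36). In barcodes with Malat1 and mitochondrial RNA the luminal transport and secreted protein medians were −0.14 and −0.20. The mucosal defence, cell cycle and multiciliogenesis medians were −0.03, 0.08 and 0.09 there. Smooth muscle and immune markers had medians of 0.30 and 0.26, and of 0.96 and 1.05 in those barcodes. The endothelial, mesothelial and red blood cell medians in those barcodes were 0.21, −0.98 and −1.39.

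The second comparison asked which genes differ between the sections within the members. Summed counts of members were compared with the quasi-likelihood test of edgeR, with the Benjamini-Hochberg adjustment at 0.05, and levels here are CPM on edgeR's TMM scale. Of 9088 genes tested outside the rule, 47 (0.517%) rose and 3 (0.033%) fell in proximal relative to distal members, together 50 genes (0.55%), and 1044 had an unadjusted p under 0.05. Without a test, the libraries of the sections did not overlap for 765 genes (8.42%) that were higher and 1017 (11.2%) that were lower in proximal members. The genes that rose most included the retinoid carrier Crabp2, the protease inhibitor Serpina1e, the opioid precursor Penk, the sodium pump regulator Fxyd4 and the urate oxidase Uox. The 3 that fell were Pde4b, the secreted protein gene Dcpp2, and Gatm, which starts creatine synthesis. Each gene named here also passed between the sections within the others, as given below with the interaction. In a check on simulated data of this design, only genes above the median level were changed. The test found 46% of those changed 4-fold and 100% of those changed 16-fold, so smaller differences would often be missed. Recovery among genes of lower level was not checked.

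Fxyd4 had 931, 1122 and 1313 CPM in the members of proximal 2, 3 and 4, against 18.1, 9.12 and 17.4 CPM in those of distal 1, 2 and 3. The sections were far apart and each was even, with a log2 fold change of 6.23 ± 0.60 (SE, adjusted p = 0.00126, edgeR). Fxyd4 belongs to a family of small proteins that tune the sodium-potassium pump, and Atp1b1, a subunit of that pump, rose as well, with 208, 351 and 555 CPM in proximal members against 48.7, 55.1 and 32.6 CPM in distal members (3.02 ± 0.53, adjusted p = 0.0365, edgeR).

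Crabp2, which carries retinoic acid to its receptor, had 108, 98.1 and 46.3 CPM in proximal members and 0 counts in all 3 distal libraries, a level at least 213-fold higher against a floor of 3 counts over the distal libraries (adjusted p = 0.00228, edgeR). Uox had 108, 196 and 98.3 CPM in proximal members against 0.936, 2.07 and 0.694 CPM in distal members (6.55 ± 0.61, adjusted p = 0.00125, edgeR). Neither gene overlapped between the sections.

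Serpina1e, of the alpha-1-antitrypsin family, had 431, 701 and 1099 CPM in proximal members against 1.56, 0.829 and 0 CPM in distal members (9.50 ± 0.87, adjusted p = 0.00125, edgeR). Its near-identical relatives make the assignment of its reads uncertain. Penk, the precursor of enkephalin peptides, had 139, 743 and 908 CPM in proximal members against 5.30, 3.31 and 4.16 CPM in distal members (7.07 ± 0.83, adjusted p = 0.00513, edgeR). Fibroblast barcodes held 191 to 312 CPM of Penk in both sections, so distal members lay below the fibroblasts of their library, while proximal 3 and 4 lay above.

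Mt2, a metal-binding metallothionein, had 706, 4458 and 3649 CPM in proximal members against 57.7, 24.9 and 155 CPM in distal members (5.21 ± 0.93, adjusted p = 0.0386, edgeR). Ciliated barcodes held 4420 to 8279 CPM in the proximal and 1167 to 1628 CPM in the distal libraries, as plain CPM. Naip5, a sensor of bacterial flagellin, had 19.1, 126 and 81.0 CPM in proximal members and 2 counts in all distal members, a pooled ratio of 165 with a counting interval of 42.0 to 1425 (adjusted p = 0.00745, edgeR). Taco1, Cwh43 and Ankrd33b also rose, with log2 fold changes of 6.09 ± 1.11, 5.51 ± 0.87 and 5.21 ± 0.83. In all 3 proximal 2 was the lowest proximal library, at 31.1, 31.1 and 21.5 CPM.

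Of the genes that fell, Gatm had 31.1, 0 and 23.1 CPM in proximal members against 403, 263 and 374 CPM in distal members (−3.93 ± 0.65, adjusted p = 0.0281, edgeR). Pde4b, which breaks down cAMP, had 0 counts in all proximal members against 227, 50.5 and 384 CPM in distal members, at least 43.9-fold lower against a floor of 3 counts over the proximal libraries (adjusted p = 0.0422, edgeR). Dcpp2 had 1 count in all proximal members against 573, 157 and 640 CPM in distal members, a pooled ratio of 0.0034 with a counting interval of 8.6e-05 to 0.0189 (adjusted p = 0.00745, edgeR). Dcpp1 and Dcpp3, its close relatives, had adjusted p-values of 0.108 and 0.285 in edgeR, with 93.3, 0 and 0 CPM of Dcpp1 in proximal members against 1037, 456 and 543 CPM in distal members. Reads of the 3 genes may be split among them.

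**Figure D5:**
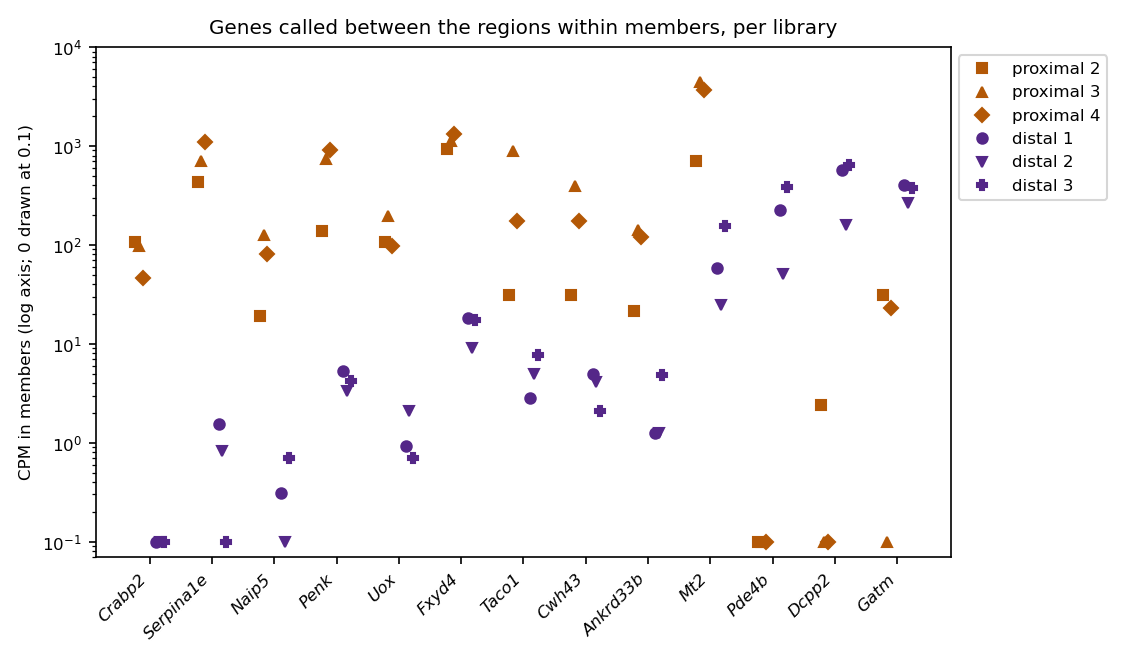
TMM-scaled CPM in members (y axis, log axis, 0 drawn at 0.1) of the 13 named genes that passed the test between sections (x axis), with 1 symbol per library, proximal on the left and distal on the right of each gene. The other 10 genes lie higher in all 3 proximal libraries and Pde4b, Dcpp2 and Gatm lie higher in all 3 distal libraries.

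Called genes per list are to be read beside the 0.517% of all tested genes that rose and the 0.033% that fell. Luminal ion and fluid transport had 2 of 18 tested genes that rose (Fxyd4 and Atp1b1), secreted growth factors and proteins 2 of 13 (Penk and Serpina1e), mucosal defence 1 of 11 (Pigr, which carries antibodies across epithelium) and stress genes 1 of 28 (Mt2). Oviduct secretory genes had 1 of 16 that fell (Dcpp2), and Ovgp1 did not pass, at 8853 ± 8796 CPM in proximal and 24219 ± 5788 CPM in distal members (adjusted p = 0.53, edgeR). None passed among 21 fatty acid, 17 cholesterol, 14 uroplakin and tetraspanin, 10 S100, 13 calcium transport, 15 steroid hormone, 14 transcription factor, 8 cell cycle and 2 multiciliogenesis genes. S100g, the calcium carrier calbindin-D9k, came nearest, at 395, 182 and 486 CPM in proximal members against 81.1, 82.0 and 62.5 CPM in distal members (2.26 ± 0.50, adjusted p = 0.0817, edgeR). List medians ran from −1.02 for mucosal defence to 0.79 for secreted proteins, beside −0.08 over all genes tested.

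RNA quality and markers of other cell types also differed between libraries. The share of members without Malat1 ran from 5.00% to 88.9% in the proximal libraries. The smooth muscle and red blood cell lists, whose sums are given above, were lower in every proximal library than in any distal one. Their part in the results was not tested.

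The calls depended on single libraries. Leaving out distal 1, 2 or 3 left 6, 8 and 7 called genes, leaving out proximal 3 or 4 left 10 and 27, and leaving out proximal 2 gave 1899. Crabp2, Fxyd4, Serpina1e, Uox and the unnamed transcript 9530014B07Rik were called in all 6 of these fits. Among members with Malat1 and mitochondrial RNA, which leaves 2 proximal libraries against 3, 1329 of 7863 genes (16.9%) were called, and 41 of the 50 genes were among them.

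Whether the sections differ more in members than in the others was asked with the interaction of class and section in edgeR. No gene of 10926 passed (0.0%), 724 had an unadjusted p under 0.05, and DESeq2 called 12. Fold changes in the others are given beside those of members for some named genes. Serpina1e, Uox, Penk, Crabp2 and Mt2 had log2 fold changes of 9.50, 6.55, 7.07, 9.77 and 5.21 in members. In the others these were 6.31, 6.45, 6.28, 6.52 and 4.05, each passing within the others alone (adjusted p of 0.00027 to 0.0068, edgeR). Dcpp2 and Pde4b stood at −8.20 and −11.1 in members and −5.58 and −3.96 in the others. The section difference of these genes was thus seen in both classes. Fxyd4 stood at 1089 CPM in proximal and 15.4 CPM in distal members and at 1166 and 31.0 CPM in the others, with log2 fold changes of 6.23 in members and 5.25 in others (adjusted p of the difference = 0.686, edgeR). Gatm fell by 3.93 on the log2 scale in members and by 4.16 in others (adjusted p of the difference = 0.999, edgeR). Within the others alone, 638 of 11378 genes (5.61%) passed, 420 (3.69%) higher and 218 (1.92%) lower in proximal barcodes, a count that reflects other summed depths and is not set against the 50. Missing the threshold does not show that the effects were equal.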

How the data were processed

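UMI counts per gene and barcode were deposited by the authors as 1 unnormalized matrix for each of 6 libraries. The build was mm39 and the counter Cell Ranger 6.1.2 per the submitters' processing notes. Per the file headers the counter was Cell Ranger 7.0.0. No deposited coordinates are printed, because the reference tables here are on GRCm38. The members, gene lists and tests were chosen with earlier results of these data known. Animals per library are not analysed here, so p-values measure the spread between pooled libraries.

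Counts were summed per library and class in Python 3.11.15 and compared with edgeR 4.0.16 (quasi-likelihood, TMM, filterByExpr) in R 4.3.3. DESeq2 1.42.0 was an alternative. The interaction fit kept the library as a block, since each library gave both classes. A library needed 10 barcodes of a class. Members against others used CPM plus a pseudocount of 5 with a minimum of 10 CPM. Doublets were scored against simulated ones but not removed. All 415 symbols in 22 lists were matched, 1 through a synonym. Lists leave out the 26 genes of the rule. Tests were checked on simulated counts. Named genes are the 14 highest and 8 lowest differences past 1 in every library, and the 10 highest and 10 lowest called fold changes between sections with at least 30 counts, without Gm, Rik, clone, mitochondrial and ribosomal genes. Up to 4 genes per list are named by size of difference. Pigr, Atp1b1 and S100g, and genes named to show a list, were added after their values were seen. Intervals and floors cover counting error only.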

Additional observations from a re-analysis of the deposited data

How the results depend on the processing

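The share of members differed by −5.51 points between sections and reached p = 0.2 at the lowest, among barcodes with Malat1 and mitochondrial RNA (exact permutation test). It was −8.22 and −6.86 after thinning to 1000 and 500 UMIs, −13.0 with at least 3 markers and −0.802 as a share of all barcodes. It turned to 5.75 among barcodes with Malat1 and mitochondrial RNA, to 2.70 with the replicate block (pairs 2 and 3), and ran from −20.0 to 4.62 leaving out 1 library, with 2.28, 1.15 and 4.62 without proximal 3, proximal 4 and distal 2.

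Members over others had 1 gene higher and 4 lower. The higher count became 7 after thinning, 0 with at least 3 markers, 15 against barcodes with no marker, 10 in the distal libraries alone and 0 among barcodes with Malat1 and mitochondrial RNA. The lower count became 118, 92, 8, 94 and 0 in the same order, 11 with a pseudocount of 1 CPM, 2 without the highest doublet scores and 8 against the Gabrg3 set. Leaving out 1 library gave 1 to 2 higher and 5 to 38 lower.

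The 50 genes called between sections became 290 with DESeq2, 420 with no filter, 12 with at least 3 markers (proximal 3 drops out), 1329 among members with Malat1 and mitochondrial RNA, 180 with the replicate block, and 0 of 1058 tested after thinning sums to the smallest library (66 at an unadjusted p under 0.05). All 50 were among the DESeq2 calls, and leaving out 1 library gave 6 to 1899. The block rests on title numbers shared by 2 pairs. Deviations of same-numbered libraries correlated at 0.617 and 0.391, which is a hint from the data, not the design. The sample descriptions number distal 3 as 4, and that library correlated at 0.324 with proximal 4, so the blocked values hold for the title numbers only. A block by the description numbers was not run. The median over these genes was −0.19 with DESeq2, against −0.08. Of 209 alternative values of 15 section genes, 52 kept their direction but missed the threshold and none reversed.

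The interaction called 0 genes, 12 with DESeq2, 28 with no filter, 7 with at least 3 markers and 0 to 1 leaving out 1 library. Without the library as a block it called 0, with 187 at an unadjusted p under 0.05. The settings on Malat1 and mitochondrial RNA and on the distal libraries alone were chosen after seeing the data. Causes were not tested. Proximal 3, with 20 members, limits depth most.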
